A study of Mus musculus with 8 samples.

Results

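A set of 10 imprinted genes that lie outside mouse chromosomes 6 and 7 was followed through day 6 cultures differentiated from embryonic stem cells. The genes were Impact, Dlk1, Plagl1, Nnat and Mcts2, which are known as paternally expressed, and Meg3, Rian, Grb10, Igf2r and H13, which are known as maternally expressed. They were taken by name from the 55487 rows of the deposited gene count table, and all 10 had a row. The names were chosen by a rule that knew the expression levels and fold changes between the lines in these same libraries, so the differences between the lines are given for these 10 genes as a description, without a test of their own. The study compared E14-Tg2a, a mouse embryonic stem cell line with the genotype WT, with a derived line called 4D that carries Tbx1-/-. Its protein is a transcription factor of the T-box family, active in the pharyngeal and cardiac progenitor regions. Both lines were grown without serum towards precardiac mesoderm and harvested on day 6. Each was measured in 4 replicates by QuantSeq, which counts the 3′ ends of polyadenylated RNA. All 4 mutant libraries came from the single line 4D, so the genotype and other properties of that line cannot be told apart.

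Imprinted genes carry DNA methylation marks set in the egg or sperm, and in the embryo they are transcribed mainly from the copy inherited from a given parent. Many of them sit in small clusters where a protein-coding gene of the paternal copy lies beside noncoding RNAs of the maternal copy, or the reverse. Several act on fetal growth, and the methylation marks of many of them are known to drift in cultured embryonic stem cells. The counts do not separate the parental copies, so "paternally" and "maternally" below are background knowledge and were not measured here.

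Depth ranged from 3803561 to 6293907 counts per library. Tbx1 had 39, 65, 38 and 22 counts in parental libraries 1 to 4 and 3, 0, 1 and 0 in mutant libraries 1 to 4, which is in the direction of the labels. Mutant library 4 stood apart, with a correlation of log2 levels across genes of 0.877 to 0.881 with the other mutant libraries, against 0.933 to 0.944 among the other pairs within a line. It also had counts in 14850 genes, against 18213 to 19134 in the other 7 libraries. Of 8 cardiopharyngeal mesoderm markers, all 8 passed the low-count filter and 7 had a negative log2 fold change (mutant against parental), with a median of -0.65. Fgf10, a growth factor gene, was called lower (edgeR adjusted p = 0.0262), and Isl1 was not called at 74.1 against 47.0 CPM, with no overlap between the lines. Hand2, at 351 against 462 CPM, carried much of the summed level, which was 618 to 857 CPM in parental libraries and 652 to 730.4 CPM in mutant ones. CPM are counts scaled by library size, with normalisation by the trimmed mean of M values (TMM). Of 6 pluripotency markers, Pou5f1 and Zfp42 did not pass the filter and the other 4 did, Sox2 at 12.1 against 12.6 CPM and Dppa4 at 10.5 against 7.14 CPM being the highest. The summed level of 8 endothelial and blood markers, globins included, was 453 to 725 CPM in parental libraries and 1016 to 1644 CPM in mutant ones. Of these 8, 7 had a positive log2 fold change and 3 were called higher. The sum of 8 cardiomyocyte markers was 461 to 2628 CPM in parental libraries, 546 to 631 CPM in mutant libraries 1 to 3 and 65.4 CPM in mutant library 4. Of these 8, 7 were tested, all 7 with a negative log2 fold change, and 0 were called. The sum of 8 fibroblast and smooth muscle markers was 692 to 1754 CPM in parental libraries and 1322 to 1789 CPM in mutant ones. Their log2 fold changes were positive for 5 and negative for 3, and 3 of the 8 were called higher (Col3a1, Postn and Twist1). Of 8 endoderm markers, 7 were tested, 6 had a negative log2 fold change and 2 were called lower. Over all tested genes 0.745% were called higher and 0.67% lower. The part of these cell types in the results below was not tested, and in such bulk samples fewer cells of a type and less RNA per cell cannot be told apart.

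Promoter sequence is shown for 2 pairs within the set. In each, a paternally expressed gene and a maternally expressed gene share a locus, and their counts are set against each other below. Airn, which is also set against Igf2r below, lies outside the set and is not shown. Sequences are those of RefSeq on GRCm38.p6, on the plus strand, which is the strand of all 4 genes shown. Each is given 5′ to 3′ and stops before the annotated transcript start. Capitals mark the hexamer TGCCGC or its reverse complement GCGGCA, the motif that the imprint-protecting zinc finger protein ZFP57 is known to bind when it is methylated.
Mcts2 (chr2:152686898-152687034): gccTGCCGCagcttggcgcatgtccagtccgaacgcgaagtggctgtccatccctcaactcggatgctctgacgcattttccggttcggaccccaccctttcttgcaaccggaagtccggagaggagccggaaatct
H13 (chr2:152669211-152669460): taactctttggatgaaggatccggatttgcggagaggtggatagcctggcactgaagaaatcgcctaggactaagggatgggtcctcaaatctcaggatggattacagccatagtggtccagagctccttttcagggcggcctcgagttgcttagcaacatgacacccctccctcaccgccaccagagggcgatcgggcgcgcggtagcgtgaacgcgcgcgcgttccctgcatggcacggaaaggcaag
Meg3 (chr12:109540746-109540995): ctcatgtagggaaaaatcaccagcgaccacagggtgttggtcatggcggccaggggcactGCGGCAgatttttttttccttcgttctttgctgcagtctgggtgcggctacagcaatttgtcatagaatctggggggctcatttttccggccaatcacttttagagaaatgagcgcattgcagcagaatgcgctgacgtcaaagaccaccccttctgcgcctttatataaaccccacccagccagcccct
Dlk1 (chr12:109452573-109452822): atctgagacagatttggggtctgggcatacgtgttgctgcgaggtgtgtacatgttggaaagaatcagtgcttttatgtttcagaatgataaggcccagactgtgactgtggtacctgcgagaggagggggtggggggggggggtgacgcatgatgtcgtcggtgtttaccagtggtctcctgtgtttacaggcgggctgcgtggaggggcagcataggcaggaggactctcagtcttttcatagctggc
The hexamer was present in the printed stretches of Mcts2 and Meg3, with 1 match each, and in neither of those of H13 and Dlk1. Over full windows of 300 bases, which run past the start, 11.6% of 32851 mouse promoter windows held it on either strand. RefSeq windows were found for the 9 members other than Impact, 11 windows in all, and 5 of the 11 held the hexamer: those of Mcts2, Nnat, Plagl1, the first of Grb10 and the first of Meg3. The hexamer itself holds a CG, a C followed by a G. Those 5 windows had 13 to 45 CG and the other member windows 0 to 34, against a median of 7 over all windows. Nothing is therefore read from 5 of 11 beside 11.6%.

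Of the 10 genes, all 10 passed the filter on low counts, and 1, Impact, was among the 188 of 13280 tested genes (1.42%) with an adjusted p under 0.05 between the lines in edgeR's quasi-likelihood test. For genes called higher the share over all tested genes was 0.745%, and for genes called lower 0.67%. Since the choice of genes knew of this contrast, nothing is read from that count. In 2 of the 10, Impact and Mcts2, the libraries of the lines did not overlap, against 7.52% of all tested genes (3.49% with the mutant line higher, as Impact, and 4.04% with it lower, as Mcts2). Nothing is read from this count either. All 5 maternally expressed genes had positive log2 fold changes (mutant against parental), between 0.11 and 0.32 with a median of 0.19. The highest was H13, whose count does not separate the full-length transcripts, known as maternally expressed, from the short ones. The 5 paternally expressed genes were spread from -1.56 to 1.04 with a median of -0.81, with 2 positive and 3 negative. The median of all tested genes was 0.001, and 50.2% were positive. The plot of fold changes shows the wide spread of the paternally expressed genes beside the narrow one of the maternally expressed genes. The 3 negative genes, Plagl1, Nnat and Mcts2, had the lowest levels of the set and the widest errors (SE 0.73, 0.75 and 0.26). The median of the paternally expressed genes was the value of Mcts2, and Meg3 and Rian lie in the same cluster. Whether the spread goes with the parental copy or with the level was not tested.

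**Figure D1:**
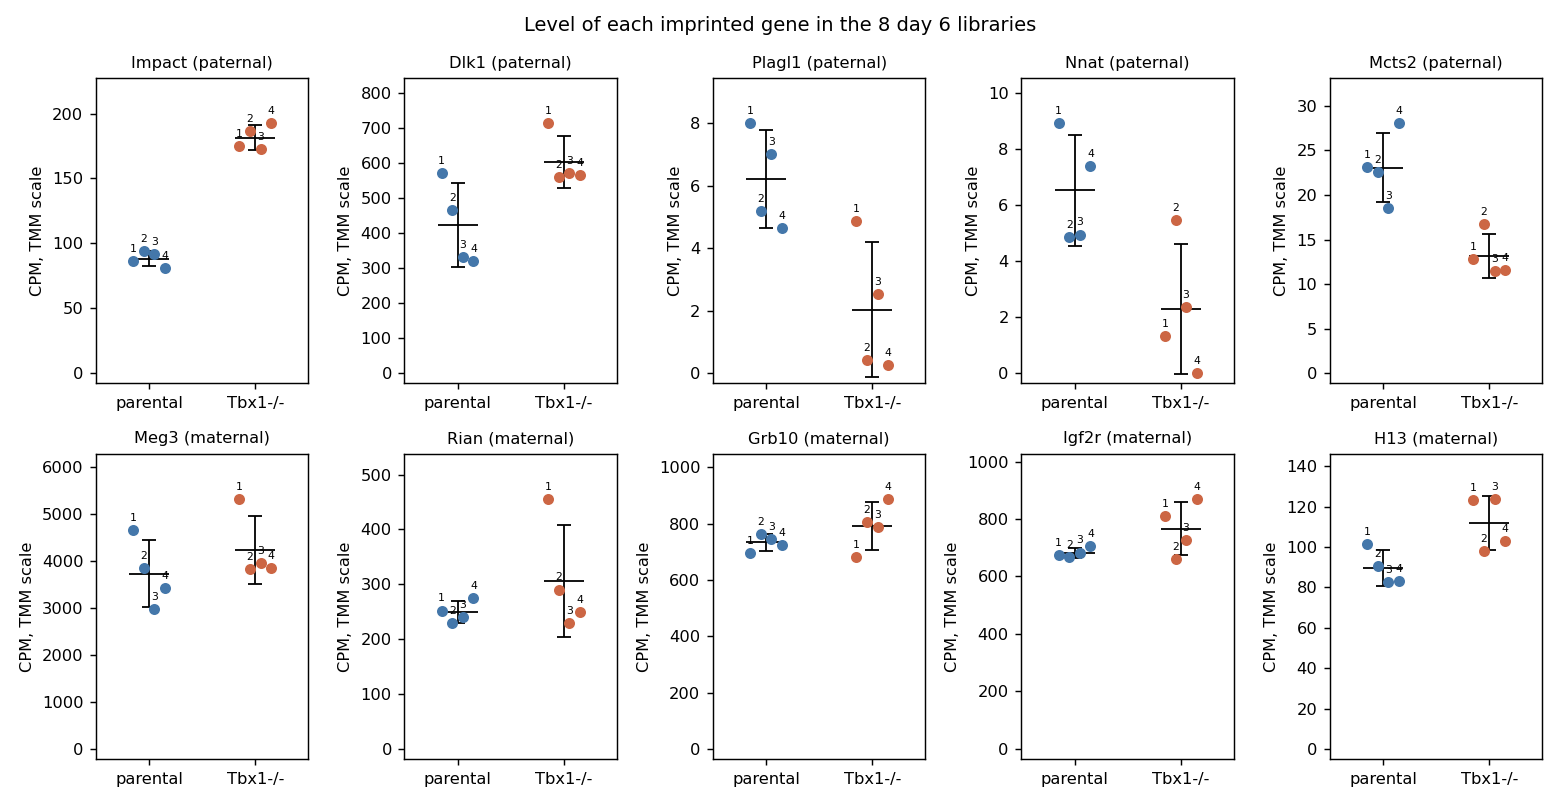
Level of each gene in CPM (vertical axes, linear, starting just below 0) in parental and Tbx1-/- libraries. Points are libraries with their replicate number, and bars are mean ± SD of 4 libraries. Impact and Mcts2 are the genes whose libraries do not overlap between the lines.

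Impact was the paternally expressed gene with the clearest separation. Impact (ENSMUSG00000024423.6, chromosome 18, plus strand) encodes a protein that binds Gcn1 and so restrains Gcn2, the kinase that slows translation when amino acids run short. Its level was 86.4, 94.0, 91.8 and 80.7 CPM in parental libraries 1 to 4, a mean of 88.2 ± 5.94 CPM (SD, n = 4). In mutant libraries 1 to 4 it was 175, 186, 173 and 192 CPM, a mean of 182 ± 9.43 CPM (SD, n = 4). Every mutant library thus lay above every parental library, and the gap between the lines was wider than the range inside either. The mutant mean was 2.06 times the parental mean, and the fitted log2 fold change was 1.04 ± 0.11 (SE). Without mutant library 4 the mutant mean was 178 CPM. The count behind each library was 383 to 1041, and counting error at such counts is small beside the difference.

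Only 3 genes close to Impact were tested, and 0 were called. Osbpl1a, an oxysterol-binding protein gene whose start lies 14.0 kb before that of Impact, had 89.0 CPM in parental libraries and 76.4 CPM in mutant ones. Its log2 fold change of -0.22 ± 0.16 (SE) did not pass in edgeR's quasi-likelihood test (adjusted p = 0.652). Within 500 kb of the start of Impact, 3 genes were tested and 0 passed (0 with an unadjusted p under 0.05, and 0 by DESeq2 or limma-voom). Over chromosome 18 as a whole, 339 genes were tested with a median log2 fold change of 0.004. Of these, Impact included, 5 were called higher and 6 lower (3.24%), against 1.42% of all tested genes. The other chromosomes that hold members had between 0.326% (chromosome 17) and 1.74% (chromosome 10). The difference between chromosomes was not tested.

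**Figure D2:**
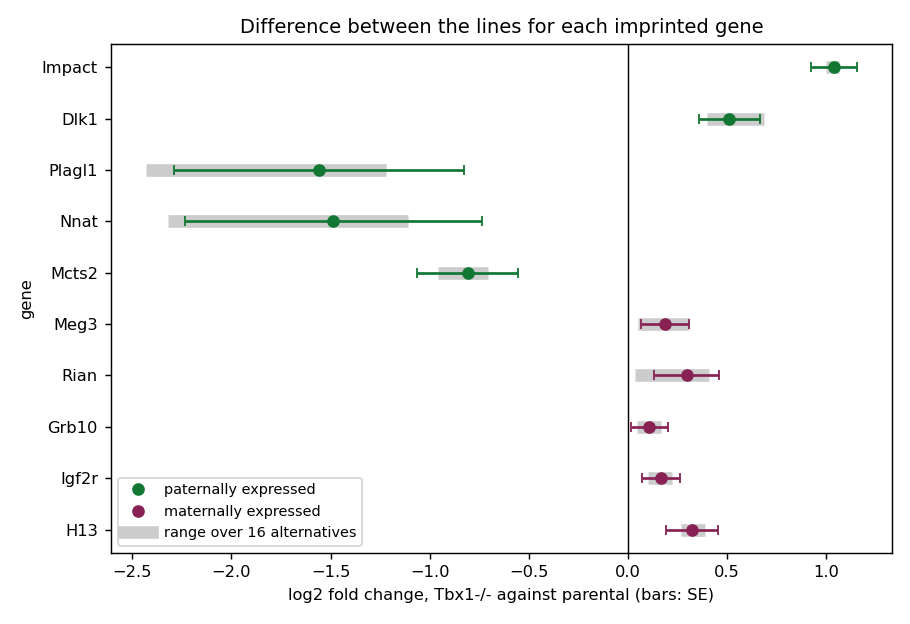
Fitted log2 fold change of each gene, Tbx1-/- against parental (horizontal axis), with its SE as a bar and the range over 16 alternative analyses in grey. Maternally expressed genes lie between 0.11 and 0.32, and paternally expressed genes between -1.56 and 1.04. The H13 value does not separate its full-length transcripts, known as maternally expressed, from its short ones.

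The Dlk1 and Meg3 cluster on chromosome 12 held the member with the highest CPM, Meg3. Counts of 3′ ends do not scale with transcript length. Dlk1 (ENSMUSG00000040856.17, chromosome 12, 109452823 to 109463336, plus strand) encodes a transmembrane protein of the Delta-like family that restrains differentiation of several mesodermal cell types. Its level was 571, 467, 332 and 319.9 CPM in parental libraries 1 to 4 and 713, 559, 572 and 565 CPM in mutant libraries 1 to 4. The means were 423 ± 119 and 602 ± 74.0 CPM (SD, n = 4), with a log2 fold change of 0.51 ± 0.15 (SE). Dlk1 was not called, but it was in 5 of 16 alternative analyses, among them DESeq2, limma-voom and the fit without parental library 1. The lines overlapped only because parental library 1, at 571 CPM, lay above mutant libraries 2 and 4. That library also had the highest summed levels of cardiomyocyte (2628 CPM), fibroblast and smooth muscle (1754 CPM), endoderm (307 CPM) and neural markers (62.4 CPM). The 4 parental libraries had the same rank order in Dlk1 and in each of these 4 sums. Parental library 1 also led the endothelial and blood and the cardiopharyngeal sums, but there library 4 (503 and 634 CPM) lay above library 3 (453 and 618 CPM). The pluripotency sum was highest in parental library 3. In the mutant line the order of Dlk1 was not that of any of the 4 sums. Mutant library 3 was highest for cardiomyocyte (631 CPM), endoderm (169 CPM) and neural markers (54.9 CPM). For fibroblast and smooth muscle markers, mutant library 4 lay above mutant library 3. The part of these cell types in the level of Dlk1 was not tested.

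Meg3 (ENSMUSG00000021268.17, 109541001 to 109571726, plus strand), a long noncoding RNA of the maternal copy, had 4659, 3846, 2973 and 3435 CPM in parental libraries 1 to 4. Mutant libraries 1 to 4 had 5319, 3822, 3967 and 3850.4 CPM. The ranges of the lines overlapped, with means of 3728 ± 716 and 4239.7 ± 722 CPM (SD, n = 4) and a log2 fold change of 0.19 ± 0.12 (SE). Library 1 was the highest for both Dlk1 and Meg3 in either line. The log2 fold change of Meg3 was 0.053 without mutant library 1, 0.082 without parental library 3 and 0.31 without parental library 1. Rian (ENSMUSG00000097451.11, 109603940 to 109661716, plus strand), the noncoding host of a large group of small nucleolar RNAs, had 252, 229, 241 and 276 CPM in parental libraries. In mutant libraries 1 to 4 it had 455, 290.5, 229 and 249.9 CPM. Mutant library 1 alone lay far above the rest, and the other 3 mutant libraries were within or near the parental range. The log2 fold change of Rian was 0.30 ± 0.16 (SE), and 0.035 without mutant library 1.

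Other transcripts of the interval from Dlk1 to Dio3 showed no call. The interval held 116 rows of the table, of which 28 had a count and 9 passed the filter. Among 90 miRNA and small nucleolar RNA rows 14 had any count. Libraries of polyadenylated 3′ ends are not made to capture such short RNAs, so their levels are not read here. Mirg, the noncoding host of a microRNA cluster at the far end of the maternal transcripts, had 165 ± 17.9 CPM in parental libraries and 148 ± 19.9 CPM in mutant ones (SD, n = 4). Its log2 fold change of -0.16 ± 0.13 (SE) had the sign opposite to those of Meg3 and Rian and did not pass. Gm37899 and B830012L14Rik, unnamed transcripts between Rian and Mirg on the same strand, had log2 fold changes of 0.41 ± 0.14 and 0.16 ± 0.14. The paternally expressed Rtl1, a retrotransposon-derived gene on the minus strand, and Dio3, which encodes a deiodinase that inactivates thyroid hormone, were low, with parental means of 6.59 ± 2.21 and 5.96 ± 2.31 CPM (SD, n = 4). Their log2 fold changes of 0.52 ± 0.42 and -0.26 ± 0.65 (SE) did not pass.

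**Figure D3:**
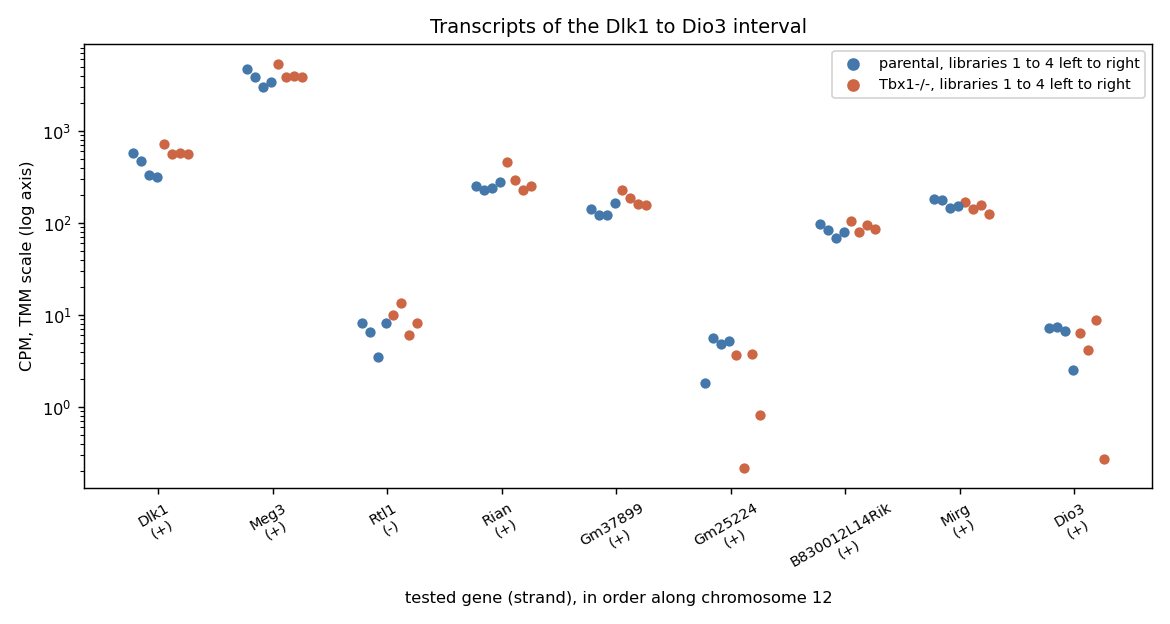
Level in CPM (vertical axis, log scale) of the 9 tested transcripts between Dlk1 and Dio3, in chromosomal order with their strand. Each point is a library. Meg3 lies highest, at 2973 to 5319 CPM, and the lines overlap for every transcript.

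Ratios taken inside a library do not depend on how libraries are scaled. The genes were chosen with this contrast known, and how often ratios of other gene pairs separate the lines was not computed. The ratios here and below are therefore a description, and nothing is read from their separation. Dlk1 had 12.3, 12.1, 11.2 and 9.31 counts per 100 Meg3 counts in parental libraries 1 to 4, and 13.4, 14.6, 14.4 and 14.7 in mutant libraries 1 to 4. The mutant ratios were all above the parental ones, at 14.3 ± 0.596 against 11.2 ± 1.36 (SD, n = 4), although Dlk1 and Meg3 taken singly overlapped between the lines. The mean without mutant library 4 was 14.1. Rian had 6.88 ± 1.40 counts per 100 Meg3 counts in parental libraries and 7.10 ± 1.23 in mutant ones, and these overlapped. Mirg had 66.7 ± 10.4 counts per 100 Rian counts in parental libraries and 50.9 ± 12.7 in mutant ones (SD, n = 4), again with overlap.

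Mcts2 and H13 share a locus on chromosome 2, and their fold changes had opposite signs. Mcts2 (ENSMUSG00000042814.8, chromosome 2, 152687035 to 152687946, plus strand) is an intronless copy of Mcts1, a gene for a factor in translation re-initiation, and lies inside H13. H13 (ENSMUSG00000019188.16, 152669461 to 152708670, plus strand) encodes signal peptide peptidase. Of 6 annotated H13 transcripts, 2 end before Mcts2, and H13-203 does so 334 bases ahead of it. The choice between short and full-length H13 transcripts is known to follow the imprint of the Mcts2 promoter, whose sequence is printed above, but the table gives 1 count per gene and does not separate them.

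Mcts2 had 23.1, 22.6, 18.5 and 28.0 CPM in parental libraries 1 to 4 and 12.8, 16.8, 11.4 and 11.5 CPM in mutant libraries 1 to 4. Every mutant library was below every parental library, with means of 23.1 ± 3.90 and 13.1 ± 2.50 CPM (SD, n = 4) and a log2 fold change of -0.81 ± 0.26 (SE). H13 had 102, 90.6, 82.8 and 83.2 CPM in parental libraries and 123, 98.1, 124 and 103 CPM in mutant ones. Its lines overlapped, with means of 89.6 ± 8.81 and 112 ± 13.4 CPM and a log2 fold change of 0.32 ± 0.13. Neither gene was called over all genes. There were 22.7, 24.95, 22.4 and 33.7 Mcts2 counts per 100 H13 counts in parental libraries 1 to 4, and 10.4, 17.1, 9.25 and 11.2 in mutant libraries 1 to 4. The ratios did not overlap, at 25.9 ± 5.29 against 11.98 ± 3.51 (SD, n = 4), and the mutant mean without library 4 was 12.2. Mcts2 alone already separated the lines, so the ratio is not counted as a further difference.

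**Figure D4:**
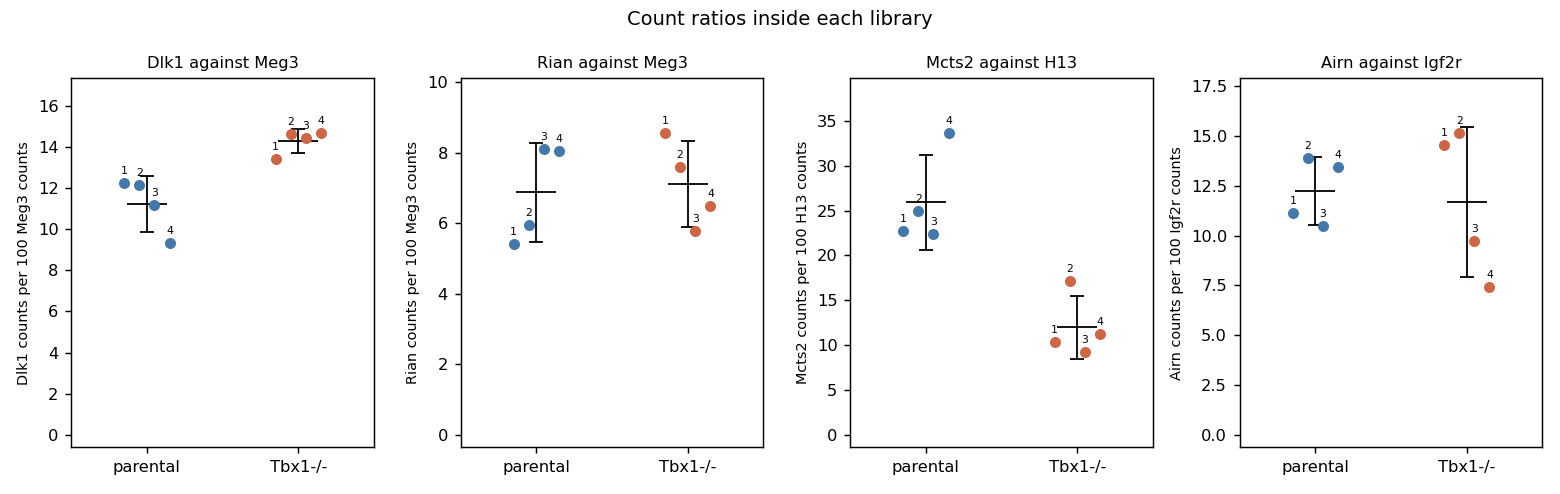
Counts of a gene per 100 counts of another from the same locus (vertical axes), by line. Points are libraries with their replicate number, and bars are mean ± SD of 4 libraries. The lines do not overlap for Dlk1 against Meg3 and for Mcts2 against H13, and overlap for Rian against Meg3 and Airn against Igf2r.

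Mcts2 resembles its parent gene, so its counts could hold reads of Mcts1 on the X chromosome. The Mcts2 transcript aligned to Mcts1-201 over 656 bases with 84.3% identity, and the alignment stopped 22 bases before the 3′ end of Mcts2. Mcts1 itself had 44.9 ± 7.61 CPM in parental libraries and 41.9 ± 13.4 CPM in mutant ones (SD, n = 4), with a log2 fold change of -0.11 ± 0.21 (SE). Mutant library 4, at 61.6 CPM, lay above the other 3, at 31.8 to 38.5 CPM, and without it the mutant mean of Mcts1 was 35.3 CPM. The sum of both genes was 67.9 ± 6.99 CPM in parental libraries and 55.0 ± 12.2 CPM in mutant ones. These overlapped through mutant library 4 alone, at 73.1 CPM, and without it the mutant mean of the sum was 48.96 CPM. Mcts2 made up 34.2% ± 6.69 of that sum in parental libraries and 24.9% ± 7.66 in mutant ones (SD, n = 4, 27.9% without mutant library 4), and these shares overlapped. How reads that match both genes were handled is not given in the sources used here, so the level of Mcts2 is uncertain to that extent.

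Plagl1 and Nnat were the weakly expressed genes of the set. Plagl1 (ENSMUSG00000019817.18, chromosome 10, 13060504 to 13131694, plus strand) encodes a zinc finger transcription factor that restrains proliferation. It had 44, 29, 44 and 22 counts in parental libraries 1 to 4 and 29, 2, 14 and 1 in mutant libraries 1 to 4. The parental mean was 6.22 ± 1.57 CPM and the mutant mean 2.03 ± 2.16 CPM (SD, n = 4), and mutant library 1, at 4.87 CPM, lay above the lowest parental library, at 4.64 CPM. Nnat (ENSMUSG00000067786.16, chromosome 2, 157560078 to 157562522, plus strand) encodes neuronatin, a small membrane proteolipid of developing brain and endocrine cells. It had 49, 27, 31 and 35 counts in parental libraries and 8, 25, 13 and 0 in mutant ones. Mutant library 2, at 5.45 CPM, lay above 2 of the parental libraries, and the 0 in mutant library 4 allows up to 0.825 CPM at a floor of 3 counts.

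The log2 fold changes were -1.56 ± 0.73 for Plagl1 and -1.49 ± 0.75 for Nnat (SE), the widest errors in the set. Mutant libraries varied by more than their own mean in both, with coefficients of variation of 106% and 101%, against 25.2% and 30.3% in parental libraries. Without mutant library 4 the mutant means were 2.62 ± 2.22 CPM for Plagl1 and 3.05 ± 2.14 CPM for Nnat (SD, n = 3). The log2 fold change of Plagl1 was -2.43 without mutant library 1, and that of Nnat -2.32 without mutant library 2.

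Grb10 and Igf2r, the growth-restraining genes of the set, had small fold changes and overlapping lines. Grb10 (ENSMUSG00000020176.17, chromosome 11, 11930508 to 12038683, minus strand) encodes an adaptor that dampens signalling of the insulin and IGF1 receptors, and outside neurons it is expressed from the maternal copy. It had 697, 764, 747 and 725 CPM in parental libraries and 681, 806, 787 and 887 CPM in mutant ones, with a log2 fold change of 0.11 ± 0.09 (SE). Mutant libraries lay on both sides of the parental range, and the fold change was 0.046 without mutant library 4 and 0.17 without mutant library 1. Igf2r (ENSMUSG00000023830.14, chromosome 17, 12682406 to 12769664, minus strand) encodes the receptor that takes IGF2 to the lysosome. It had 675, 667, 683 and 707 CPM in parental libraries, the narrowest spread of the set at a coefficient of variation of 2.55%. Mutant libraries had 811, 660.0, 727 and 869 CPM, on both sides of the parental range, with a log2 fold change of 0.17 ± 0.10 (0.10 without mutant library 4).

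Airn, the paternally expressed noncoding RNA that crosses Igf2r from the opposite strand and is known to silence it on that copy, had 83.5 ± 11.95 CPM in parental libraries and 88.2 ± 25.2 CPM in mutant ones (SD, n = 4). The fitted log2 fold change of Airn was 0.08 ± 0.18 (SE). There were 12.2 ± 1.69 Airn counts per 100 Igf2r counts in parental libraries and 11.7 ± 3.76 in mutant ones, and these overlapped. The deposited counts are marked as forward-strand counts, and reads of opposite strands are told apart in such counting.

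Among 24 further imprinted genes outside chromosomes 6 and 7, 19 passed the filter and 0 were called (2 with an unadjusted p under 0.05, Gab1 and Slc22a3, and 0 by DESeq2 or limma-voom). Over all tested genes 1.42% were called and 11.9% had such an unadjusted p, so these counts do not set the list apart. The 8 tested paternally expressed genes had a median log2 fold change of 0.15, with 7 positive and a range of -0.26 to 0.59, where the 5 paternally expressed members above had a negative median. The 11 maternally expressed or biased genes had a median of 0.10, with 8 positive and a range of -0.16 to 1.08. Whether the genes of these lists are imprinted in these cells was not measured, so the medians are not a comparison of parental copies. The paternally expressed Slc38a4, an amino acid transporter, was the highest of its list at 371 ± 13.4 CPM in parental libraries and 409 ± 76.9 CPM in mutant ones (SD, n = 4). Ago2, an Argonaute protein with a maternal bias in some tissues, had 347 ± 24.0 and 391 ± 38.9 CPM. Neither passed in edgeR's quasi-likelihood test (adjusted p = 0.720 and 0.562). By comparison, 4 of 32 tested imprinted genes of chromosomes 6 and 7 were called, against 1.42% of all tested genes: Mest, Asb4 and Phlda2 higher and H19 lower, with log2 fold changes of 3.21, 1.09, 0.46 and -1.42. These lists too were chosen with earlier results of these data known, so nothing is read from that count. The difference between these sets was not tested.

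Genes that keep or write methylation imprints were counted in the same way. Of 21 listed, 19 passed the filter and 0 were called (2 with an unadjusted p under 0.05, Dnmt3b and Setdb1, and 0 by DESeq2 or limma-voom), with 8 positive and 11 negative and a median of -0.04. These counts too lie near the 1.42% and 11.9% over all tested genes. Trim28, the corepressor recruited by ZFP57, was the highest at 718 ± 80.8 CPM in parental libraries and 667 ± 52.6 CPM in mutant ones (SD, n = 4), with an edgeR adjusted p of 0.748. Zfp57 had 19.4 ± 3.30 and 18.9 ± 5.65 CPM. Dnmt3b, a de novo DNA methyltransferase, had 100.1 ± 2.33 and 76.6 ± 14.7 CPM, which is -0.39 ± 0.14 (SE) on the log2 scale (edgeR adjusted p = 0.246). Its libraries overlapped through mutant library 4. Setdb1, a histone H3 lysine methyltransferase, had a fold change of -0.45 ± 0.21 (SE) on the log2 scale (edgeR adjusted p = 0.414), and its libraries did not overlap.

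Within 500 kb of the starts of the 10 genes, 50 other genes were tested. In edgeR's quasi-likelihood test 0 of the 50 were called, against 1.42% of all tested genes. An unadjusted p under 0.05 was found for 9 of the 50, against 11.9% of all tested genes, and DESeq2 called 2 and limma-voom 1. Cox4i2, a subunit form of cytochrome c oxidase 67.1 kb beyond the start of Mcts2, had the smallest adjusted p, 0.0784, with 15.5 CPM in parental libraries and 4.36 CPM in mutant ones. Its log2 fold change was -1.86 ± 0.50 (SE). Id1, an inhibitor of basic helix-loop-helix factors 49.2 kb beyond the start of Mcts2, had 248 CPM in parental libraries and 172 CPM in mutant ones, a log2 fold change of -0.53 ± 0.17 (SE) and an edgeR adjusted p of 0.137. For both genes every mutant library was below every parental one. The medians of all tested genes on chromosomes 2, 10, 11, 12, 17 and 18 lay between -0.03 and 0.01.

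**Figure D5:**
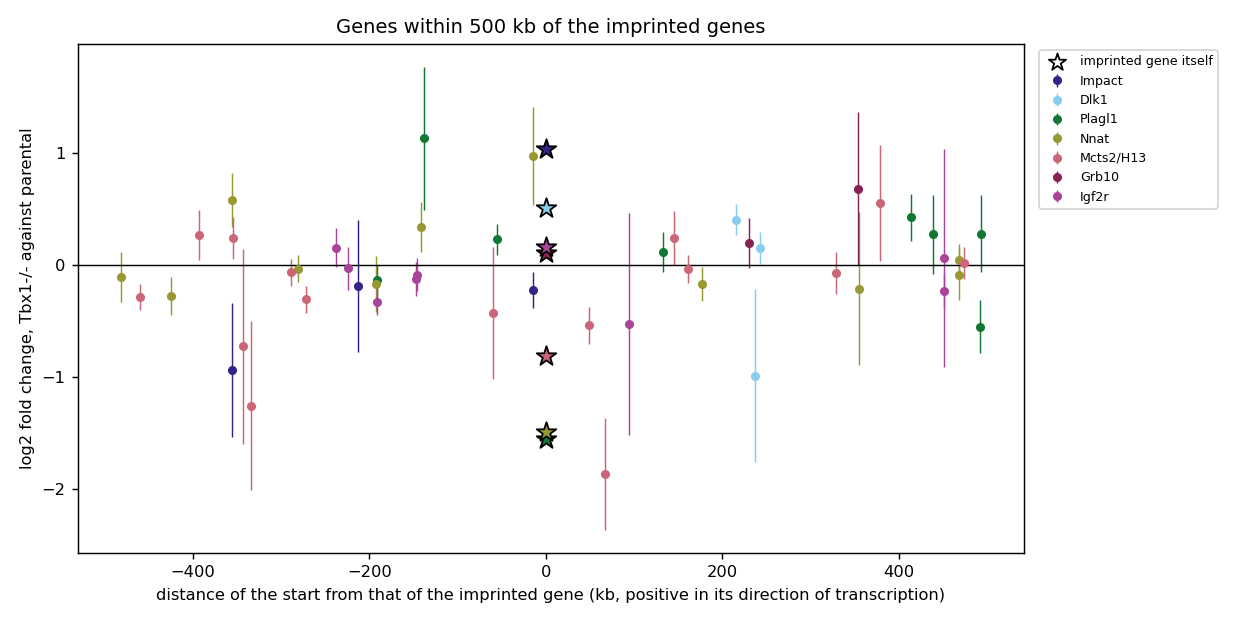
Log2 fold change, Tbx1-/- against parental (vertical axis, bars SE), of tested genes by the distance of their start from that of the imprinted gene (horizontal axis, kb). Stars are Impact, Dlk1, Plagl1, Nnat, Mcts2, Grb10 and Igf2r, and colours give the locus. The star of Impact, at 1.04, stands above the 3 tested genes near it, which lie between -0.94 and -0.18. Nothing is read from so few genes.

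Genes that followed Impact, Dlk1 and Meg3 most closely across libraries were sought with the mean of each line removed. The measure was Pearson's r of log2 CPM over 8 libraries, given as a description of these shared libraries with no test. The closest to Impact were Cry2 (r = 0.971), Aurkb (0.971) and Leng9 (0.962). The closest to Dlk1 were Wnt2 (0.995), Loxl2 (0.991) and Larp4b (0.985), and the closest to Meg3 were Anxa6 (0.985), Chsy1 (0.983) and Dab2 (0.982). Without mutant library 4 these values were between 0.952 and 0.995. Each is among the highest over all 13280 tested genes, and a search of that size turns up high values. Within the set, r was 0.899 between Dlk1 and Meg3, 0.563 between Meg3 and Rian and 0.254 between Dlk1 and Rian. H13, on another chromosome, had r of 0.748 with Dlk1 and 0.778 with Meg3, and Grb10 had -0.697 with Meg3. Impact had 0.0737 with Dlk1.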

How the data were processed

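Polyadenylated RNA of 4 parental and 4 Tbx1-/- replicates (day 6) was sequenced by QuantSeq, per the labels. The authors deposited whole-number counts per gene and library, unnormalized and unpooled. STAR, featureCounts and mm10 are named in the submitters' processing notes; versions, annotation and duplicate removal are not given in the sources used here. Of 55487 identifiers, 55141 matched a GENCODE M21 symbol (GRCm38), and coordinates are from M21. The genes and lists were chosen with earlier results of these data known.

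Counts were filtered with filterByExpr, which left 13280 genes with 99.5% of counts, scaled by TMM, and compared with edgeR 4.0.16 (quasi-likelihood F test, two-sided, Benjamini-Hochberg adjustment over the 13280 genes, threshold 0.05) in R 4.3.3. The fit was tested on simulated data. SE were derived from the fold change and F. Floors (3 counts) cover counting error only. Labels do not say whether replicates were separate differentiations. The p-values set the difference between the lines against the variation among these libraries within each line, with a single mutant line. Alternatives were RLE, upper-quartile and library-size scaling, other filters, DESeq2 1.42.0, voom from limma 3.58.1, a replicate block and leaving out each library. Pairs within a line differed by more than sampling noise (chi-square per degree of freedom 7.18 to 25.7), so all 8 were used. Besides all 10 members and Tbx1, the text names up to 5 called genes, otherwise the most expressed, for some of the lists. Such genes are left unnamed for proximal and central chromosome 7 and for the cardiomyocyte, endothelial and blood, endoderm and neural markers. Also named are 3 genes most like Impact, Dlk1 and Meg3, and Mcts1 and Airn. Isl1, Hand2, Dppa4, Pou5f1 and Zfp42 were named outside this rule. Osbpl1a, Cox4i2, Id1, Gab1, Slc22a3, Dnmt3b, Setdb1, Zfp57 and the other transcripts of the chromosome 12 interval were named after their values were seen.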

Additional observations from a re-analysis of the deposited data

Results flagged for a closer look

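Values of the 10 genes and of 7 ratios were checked for a library far from the other 3 of its line, in 34 groups of 4 libraries, and chance alone flags about 1 in 20 groups. Mutant library 1 had 713 CPM of Dlk1, with the next mutant library at 572 CPM, and 5319 CPM of Meg3, with the next at 3967 CPM. Both genes lie in the same cluster, and this library also had the highest summed levels of endothelial and blood markers, 1644 CPM, and of fibroblast and smooth muscle markers, 1789 CPM, in the mutant line. It was not the highest mutant library for cardiomyocyte (570 CPM), endoderm (167 CPM) or cardiopharyngeal markers (693 CPM). For neural (27.5 CPM) and pluripotency markers (21.3 CPM) it was the lowest. The part of these cell types in the result was not tested. Parental library 4 had 79.2 Mcts2 counts per 100 Mcts1 counts, with the next parental library at 45.4. Mcts2 accordingly made up 44.2% of the sum of Mcts1 and Mcts2 there, with the next at 31.2%.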

How the results depend on the processing

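Every member kept the sign of its log2 fold change in all 16 alternatives run, and Impact was called in all 16, with values between 1.00 and 1.07. The median log2 fold change stayed between -0.96 and -0.71 for paternally expressed and between 0.13 and 0.30 (without parental library 1) for maternally expressed members. Leaving out 1 library moved the value of Meg3, Rian, Grb10, Igf2r, Plagl1 and Nnat by over 1.5 times, as given beside each gene. The count of called genes, 188, was 439 without the filter on low counts and 399 with DESeq2, and ranged from 103 (without parental library 2) to 235 (without mutant library 2) when single libraries were left out; it was 104 without parental library 3 and 116 without mutant library 3. Library size alone gave 157, of which 100 were higher. Called members were 2 in place of 1, Dlk1 joining Impact, without the filter, with DESeq2, with limma-voom, with the replicate block and without parental library 1; other single libraries left out gave 1, so that the range was 1 to 2. For Dlk1 the log2 fold change lay between 0.40 and 0.69. Called neighbours, 0 at first, were 2 without the filter and with DESeq2 (Id1 and Cox4i2), 1 with limma-voom (Cox4i2), 1 with the replicate block (Id1), and 0 to 1 with single libraries left out (Cox4i2, without mutant library 2 or 4). Other imprinted genes and imprint regulators stayed at 0 called in all 16.

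Replicate numbers occur in both lines, but no label says that they mark shared cultures, and same-numbered libraries deviated from their line means with correlations of 0.102, 0.0155, -0.0331 and 0.0284. With the replicate block 234 genes were called. The weakly expressed Plagl1 and Nnat, at 49 counts or fewer per library, limit what depth can show.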
